A study of Mus musculus with 16 samples.

Results

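The presynaptic vesicle release machinery was examined as a set of 44 genes in mouse hippocampus. The genes were listed by function: proteins of the synaptic vesicle membrane, the synapsins, vesicular glutamate transporters, calcium sensors, SNARE proteins and their regulators, active zone scaffolds and endocytic proteins. All 44 names were found among the 22572 gene names of the deposited expression table, and all 44 were among the 12648 names tested, which had a mean of at least 1 FPKM (fragments scaled by transcript length and by the number mapped). The lowest member value in any library was 2.36 FPKM, so no member entered the test through a single group.

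The tissue came from male C57BL/6 mice. Wild type (WT) mice were compared with mice carrying a knockout of Bgn, written Bgn0/- by the submitters and BgnKO here. The product of Bgn, biglycan, is a secreted matrix proteoglycan with leucine-rich repeats. From 3 months of age and for 6 weeks, mice of each genotype drank either plain water or a 15% (w/v) fructose solution. Each of the 4 groups (WT on water, WT on fructose, BgnKO on water, BgnKO on fructose) had 4 libraries, made from poly-A selected RNA of bulk hippocampus. The labels give replicate numbers and do not say that each library is a separate animal, so the p-values rest on a spread between libraries that may be partly technical. FPKM values carry no read counts, and the depth behind them is unknown.

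A nerve terminal releases transmitter when a filled vesicle docks at the active zone, is primed and fuses with the plasma membrane after calcium entry. The vesicle SNARE synaptobrevin and the plasma membrane SNAREs syntaxin and SNAP-25 drive fusion, Munc13 proteins prime the vesicle, complexins and synaptotagmins tie fusion to calcium, and NSF with SNAP adaptors takes the spent SNARE complex apart. Dynamin, amphiphysin and synaptojanin then retrieve the membrane. Hippocampal excitatory terminals load their vesicles with glutamate mainly through VGLUT1, encoded by Slc17a7.

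Some RefSeq promoter sequence is shown for the members that the comparisons below turn on or that held a searched motif. A window of 300 bases around the start site was found for 35 of the 44 members, with 47 windows in all. The first sequence is the whole window of Unc13a, the gene with the clearest genotype difference, at chr8:71671708-71672007 on the minus strand of GRCm38.p6. The others are stretches around a motif in Synj1 (chr16:91011228-91011276, minus strand), Syn1 (chrX:20921050-20921097, minus strand) and Napa (chr7:16098553-16098600, plus strand). All run 5′ to 3′ on the strand of the gene, and capitals mark the motif.
Unc13a: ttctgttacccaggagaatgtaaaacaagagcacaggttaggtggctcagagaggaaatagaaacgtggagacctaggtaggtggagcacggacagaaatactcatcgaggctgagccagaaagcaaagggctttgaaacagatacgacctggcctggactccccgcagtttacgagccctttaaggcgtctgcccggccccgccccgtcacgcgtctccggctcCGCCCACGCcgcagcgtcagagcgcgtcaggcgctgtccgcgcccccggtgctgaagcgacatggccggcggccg
Synj1: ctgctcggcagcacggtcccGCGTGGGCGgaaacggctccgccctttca
Syn1: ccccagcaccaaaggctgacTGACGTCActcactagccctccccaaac
Napa: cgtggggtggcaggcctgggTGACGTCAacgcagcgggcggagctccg

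In Unc13a and Synj1 the capitals are the Egr1 site GCGTGGGCG, searched on both strands. It lies on the other strand in Unc13a, with its first base at -25 from the start site, and begins at -161 in Synj1. In Syn1 and Napa the capitals are the cyclic AMP response element TGACGTCA, which begins at -159 and -7. The Egr1 site was in 2 of the 47 member windows and in 0.612% of all 32851 windows of the same length, and the cyclic AMP response element was in 2 member windows and in 1.79% of all. The RE1 element, taken as CAGCACC and GGACAG with 2 bases between them, searched on both strands, were in 0 member windows and in 0.0365% of all. No member window held more than 1 of the 3 motifs. These matches describe the sequence and do not show binding.

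Several facts of the libraries touch the results. The 4 libraries numbered replicate 1 stood apart from the other 12, so values with a term for replicate 1, or from replicates 2 to 4 alone, are given beside the pooled ones. Bgn was 9.94 to 24.2 FPKM in WT on water and 5.42 to 21.2 in WT on fructose, against 4.46 to 7.60 in BgnKO on water and 5.02 to 7.11 in BgnKO on fructose. The library labelled WT fructose replicate 1 had the 5.42 FPKM, inside the range of the knockout libraries. In each of the 4 groups replicate 1 had the lowest Bgn value. WT fructose replicate 1 also had the lowest summed levels of choroid plexus genes (247 FPKM) and meningeal genes (52.3 FPKM) of the 16 libraries. The summed FPKM of the 44 members was 6836 in BgnKO fructose replicate 4 and 7631 to 9707 in the other 15 libraries. The main counts of members are therefore given with and without the libraries concerned.

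The members ranged over more than 2 orders of magnitude in level. Because FPKM is scaled by transcript length, levels can be set side by side between genes, but only roughly for the 5 members summed over several loci. Over the 16 libraries 5 members averaged above 500 FPKM, 12 were between 100 and 500, 20 between 10 and 100, and 7 at 10 FPKM or less. The median member mean was 76.4 FPKM, against 10.4 for all tested genes, and 8 members were among the 100 highest tested genes. Snap25, a plasma membrane SNARE, was the highest at a mean of 1305 FPKM, rank 10 of all tested genes. Cplx3, a complexin known mainly from retinal ribbon synapses, was the lowest at 4.01 FPKM.

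**Figure D1:**
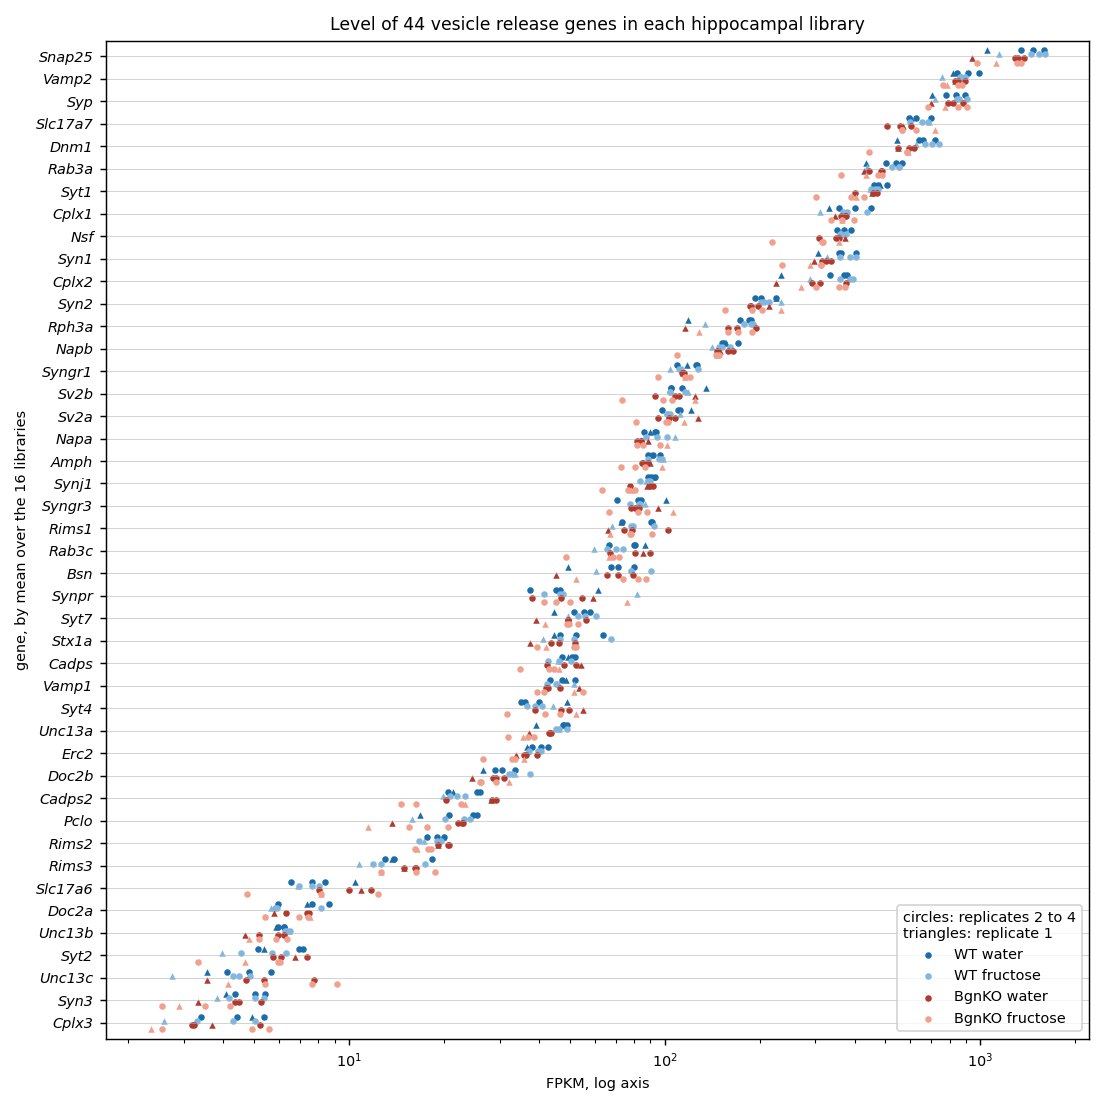
FPKM (log axis) of each of the 44 genes in each of the 16 libraries, 1 point per library, colored by group, with triangles for replicate 1; genes are ordered by their mean. Snap25 leads at a mean of 1305 FPKM, Cplx3 is last at 4.01, and for most genes the 4 groups lie over each other.

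Most members were lower in the knockout, by small amounts, and 1 passed the test. On water 34 of 44 members had a lower mean in BgnKO, with a median log2 fold change of -0.07, and on fructose 37 of 44, with a median of -0.12. Among all tested genes 50.5% were lower on water and 52.5% on fructose, with medians of 0.00 and -0.01. The fold changes are on the scale of log2(FPKM + 1), which understates the change of low genes. By limma with Benjamini-Hochberg adjustment over all tested genes, 0 members passed an adjusted p of 0.05 on water, where 0.387% of all genes did. At an unadjusted p under 0.05 there were 0 members on water, against 5.33% of all genes, and 12 on fructose (27.3%), against 21.3%. On fructose 1 member passed, Unc13a, where 3.76% of all genes did, so the share of members called was not above the background. Over both drinks together 37 of 44 were lower, with a median of -0.09, and Unc13a was again the 1 member called, against 4.99% of all genes.

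Of the libraries left out singly, BgnKO fructose replicate 4 moved the shift on fructose the most. Without BgnKO fructose replicate 4, 29 of 44 members were lower on fructose, with a median of -0.05, and 0 were called. Without the library labelled WT fructose replicate 1, 36 were lower, with a median of -0.15. With a term for replicate 1, 9 members passed on fructose, where 17.3% of all genes passed, and 10 over both drinks, where 18% did. With replicates 2 to 4 alone the counts were 5 on fructose against 10.9% of all genes, and 6 over both drinks against 12.6%. With the term and without BgnKO fructose replicate 4, 2 members passed on fructose, Syn1 and Unc13a, where 8.43% of all genes passed, and 11 over both drinks, where 14.3% did. Of the 10 called over both drinks with the term, Unc13b was lost without that library, and Rab3a and Syt4 were gained.

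**Figure D2:**
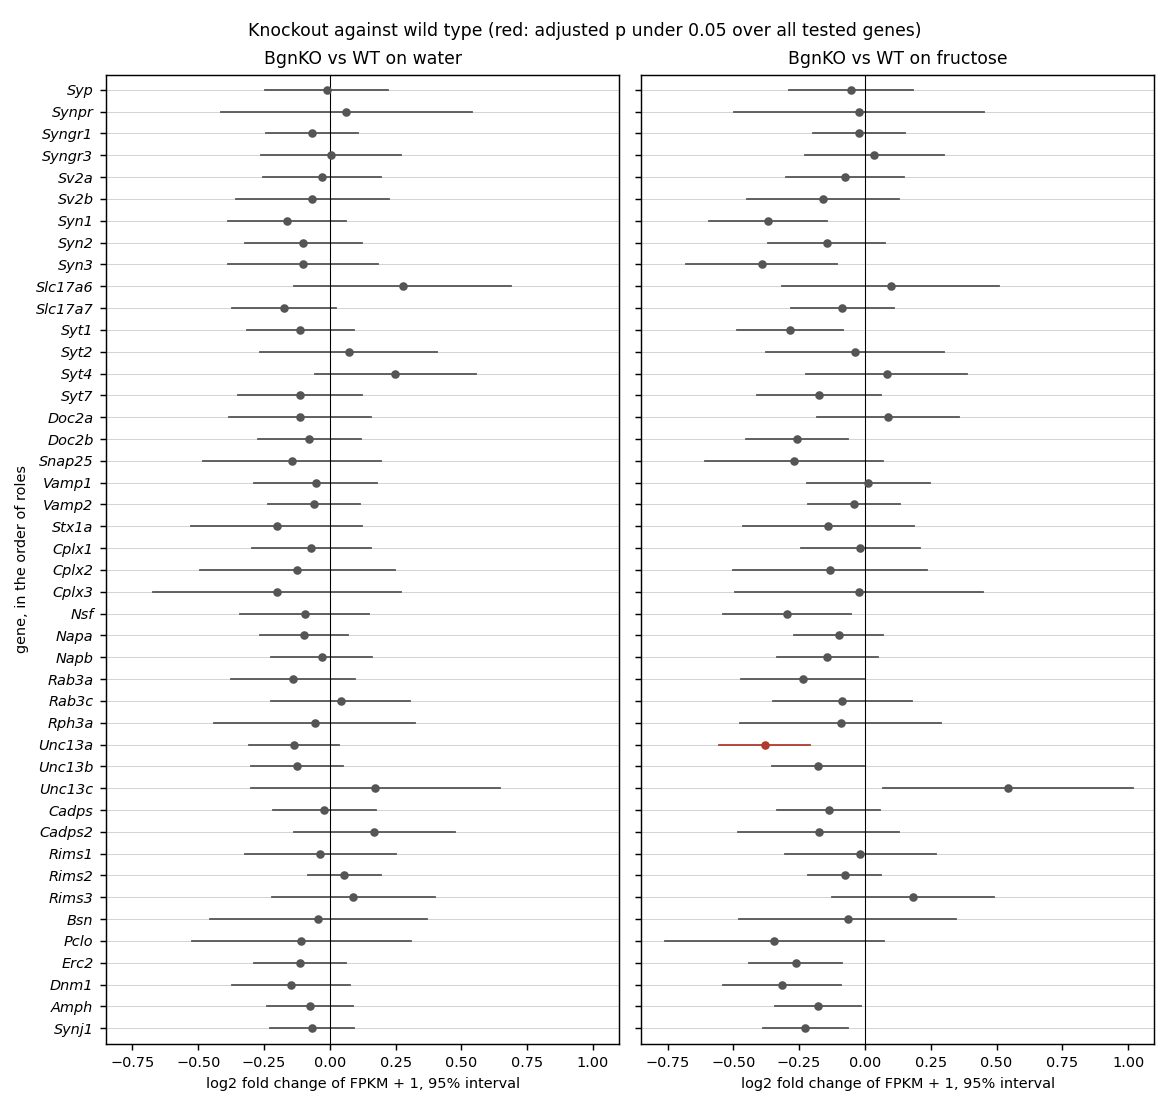
Log2 fold change (BgnKO over WT, log2 of FPKM + 1) of each of the 44 genes on water (left) and on fructose (right), with 95% confidence intervals; red marks an adjusted p under 0.05. Unc13a on fructose, at -0.38, is the 1 gene in red, and Unc13c, at 0.54, is the farthest to the right.

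Every knockout library lay below every wild-type library on fructose for 7 members, Syn1, Syt1, Nsf, Unc13a, Erc2, Dnm1 and Synj1. The same held for 6.43% of all tested genes. On water this was so for 0 members and for 2.26% of all tested genes. These counts rest on values summed over the loci of a gene name. The 95% intervals of 37 of 44 members on water, and of 34 on fructose, lay within 0.5 of 0 on the log2 scale. For those members a change of that size or more lies outside the interval.

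The priming factors held both the called member and the largest positive fold change. Unc13a encodes Munc13-1, the main priming factor of hippocampal glutamatergic terminals (chr8:71624417-71671757, minus strand, GENCODE vM21). Its level was 39.3, 48.0, 47.8 and 48.9 FPKM in WT on water, and 46.2, 46.3, 45.4 and 49.2 in WT on fructose. It was 37.1, 43.6, 43.3 and 42.9 in BgnKO on water and 35.6, 38.6, 36.8 and 31.9 in BgnKO on fructose. On fructose the highest knockout library was below the lowest wild-type library. On water replicate 1 of each genotype was the lowest of its group. Among replicates 2 to 4 on water every knockout library was below every WT library, as for 6 of 44 members and 9.65% of all tested genes.

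Unc13a on fructose was 46.8 ± 1.68 FPKM (SD, n = 4) in WT and 35.8 ± 2.85 (SD, n = 4) in BgnKO, 76.4% of WT, and all 4 knockout libraries were below the WT mean. The log2 fold change was -0.38 (SE 0.08, 95% interval -0.55 to -0.21, limma adjusted p = 0.0188). Over both drinks it was -0.26 (SE 0.06, limma adjusted p = 0.0164), with 8 of 8 knockout libraries below the WT mean, and on water -0.14 (limma adjusted p = 1). The call on fructose ended without WT fructose replicate 2 (limma adjusted p = 0.0518), WT fructose replicate 4 (0.0672) or BgnKO fructose replicate 4 (0.0654, log2 fold change -0.33). It was kept with a term for replicate 1 (limma adjusted p = 0.00262), also without BgnKO fructose replicate 4 (0.00415). The call over both drinks was kept in each alternative run, at adjusted p of 0.00154 to 0.0461. The exons of Unc13a share 495 of 12623 bases with Colgalt1 on the other strand, listed as Glt25d1. Its log2 fold change on fructose was -0.08 (limma adjusted p = 0.520).

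Unc13c, which encodes Munc13-3, a form best known from cerebellar granule cells, was low throughout. It was 3.54, 5.67, 4.81 and 4.10 FPKM in WT on water and 2.75, 4.29, 4.47 and 4.87 in WT on fructose. In BgnKO it was 3.54, 5.39, 4.72 and 7.72 on water and 4.13, 5.41, 9.19 and 7.62 on fructose, the widest spread of the 44 members at 3.34-fold. The groups overlapped, and replicate 1 was the lowest library of each group. Its mean on fructose was 161% of WT, which on the log2 scale was 0.54 (SE 0.22, limma adjusted p = 0.172). With a term for replicate 1 it passed (limma adjusted p = 0.0207), and without BgnKO fructose replicate 4 in that fit it did not (0.0607). Unc13b, which encodes Munc13-2, was 5.88, 6.24, 6.20 and 5.98 FPKM in WT on water and 6.44, 6.27, 6.38 and 6.497 in WT on fructose. It was 4.69, 6.22, 5.20 and 5.94 in BgnKO on water and 4.82, 6.37, 5.19 and 5.86 in BgnKO on fructose. Replicate 2 of the knockout lay within the wild-type range on each drink, and replicate 4 did on water. The log2 fold change of Unc13b was -0.18 on fructose (SE 0.08, limma adjusted p = 0.221) and -0.15 over both drinks (SE 0.06, adjusted p = 0.141). Over both drinks it passed with a term for replicate 1 (adjusted p = 0.0406), but not there without BgnKO fructose replicate 4 (0.0512). Cadps and Cadps2, which encode the CAPS proteins that prime dense-core vesicles, averaged 47.0 and 22.6 FPKM, with log2 fold changes of -0.14 and -0.18 on fructose (limma adjusted p = 0.408 and 0.510).

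The synapsins, which tether vesicles to one another and to actin, were lower in the knockout in 3 of 3 genes on both drinks, with 0 called. Syn1 (chrX:20860511-20921004, minus strand) was 307, 356, 406 and 363 FPKM in WT on water and 326, 361, 388 and 406 in WT on fructose. It was 298, 324, 336 and 316 in BgnKO on water and 289, 313, 313 and 236 in BgnKO on fructose. Replicates 2 to 4 of the knockout were below those of WT on each drink, as held for 9.65% of all tested genes on water and 18.6% on fructose. In Syn1 the log2 fold change was -0.37 on fructose (SE 0.11, limma adjusted p = 0.0626) and -0.27 over both drinks (SE 0.07, adjusted p = 0.0526), with 8 of 8 knockout libraries below the WT mean. With a term for replicate 1 both passed, at adjusted p = 0.0144 and 0.0119, and both also passed there without BgnKO fructose replicate 4 (0.0201 and 0.00512). Syn3, a low synapsin, was 4.09, 5.40, 4.37 and 5.04 FPKM in WT on water and 3.82, 5.02, 4.18 and 5.36 in WT on fructose. It was 3.33, 5.27, 4.36 and 4.49 in BgnKO on water and 2.89, 4.18, 3.501 and 2.56 in BgnKO on fructose, and the genotypes overlapped on both drinks. For Syn3 the log2 fold change was -0.39 on fructose (SE 0.13, limma adjusted p = 0.110) and -0.25 over both drinks (SE 0.10, adjusted p = 0.146). With a term for replicate 1 both passed (adjusted p = 0.0225 and 0.0341), and without BgnKO fructose replicate 4 in that fit the one over both drinks did (0.0475) and the one on fructose did not (0.0619). Syn3 shares 14.1% of its exonic bases with Timp3 on the other strand, whose log2 fold change on fructose was 0.69 (limma adjusted p = 0.0657). Syn2 averaged 205 FPKM and had -0.15 (limma adjusted p = 0.446).

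**Figure D3:**
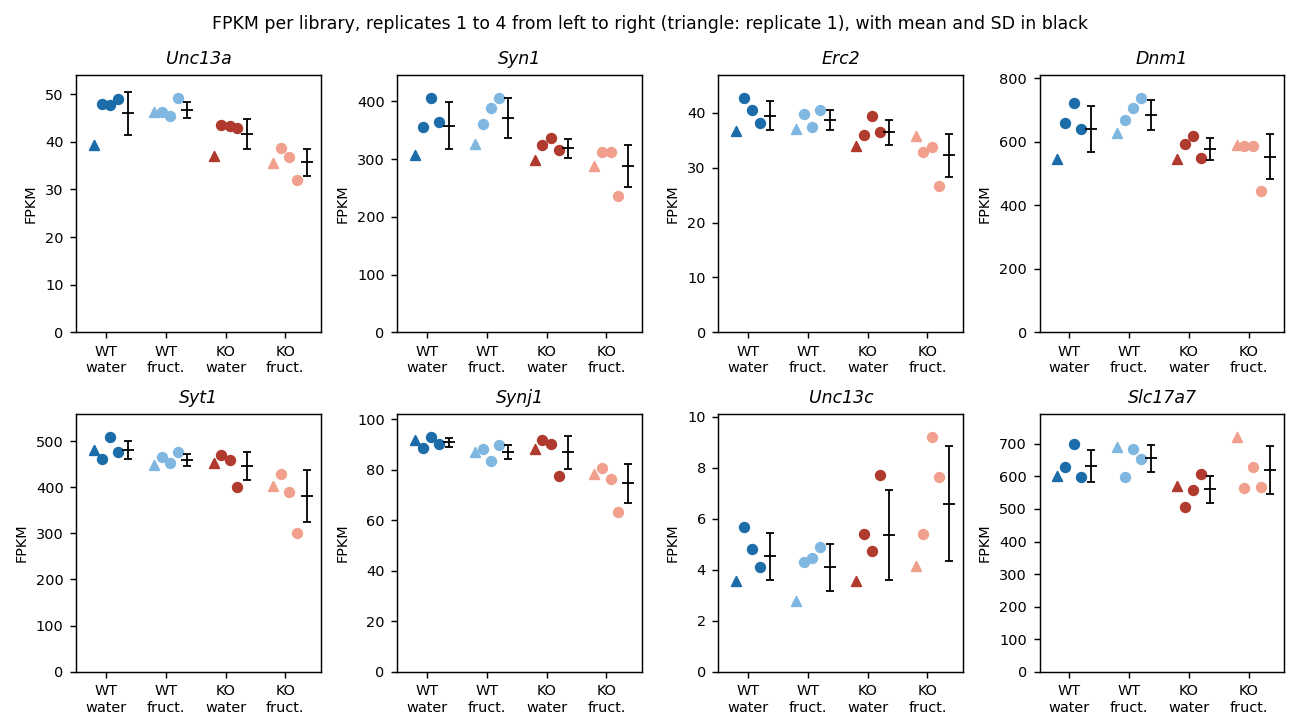
FPKM of 8 genes in each library (linear axes from 0), grouped as WT on water, WT on fructose, BgnKO on water and BgnKO on fructose, with replicates 1 to 4 from left to right and the mean and SD in black. Unc13a falls from 46.8 to 35.8 FPKM between genotypes on fructose, and BgnKO fructose replicate 4 is the lowest point of its group in Unc13a, Syn1, Erc2, Dnm1, Syt1 and Synj1.

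The active zone scaffolds, which organise release sites and calcium channels, had 5 of 6 members lower on fructose and 0 called. Erc2, which encodes the scaffold CAST, was 36.7, 42.7, 40.5 and 38.0 FPKM in WT on water and 37.0, 39.8, 37.3 and 40.5 in WT on fructose. It was 33.9, 35.9, 39.4 and 36.4 in BgnKO on water and 35.8, 32.8, 33.7 and 26.7 in BgnKO on fructose, where all 4 libraries were below those of WT. The log2 fold change of Erc2 on fructose was -0.26 (SE 0.08, limma adjusted p = 0.0862). It passed with a term for replicate 1 (adjusted p = 0.0345), but not there without BgnKO fructose replicate 4 (0.0832). Pclo, which encodes piccolo, was 16.8, 24.8, 20.7 and 25.4 FPKM in WT on water and 15.8, 23.2, 20.1 and 24.1 in WT on fructose. It was 13.7, 22.9, 23.0 and 22.1 in BgnKO on water and 11.45, 20.7, 17.7 and 15.5 in BgnKO on fructose. Replicate 1 was the lowest library of each group, and the genotypes overlapped. Its log2 fold change was -0.34 on fructose (SE 0.20, limma adjusted p = 0.328) and -0.23 over both drinks (SE 0.14, adjusted p = 0.371). Both passed with a term for replicate 1 (adjusted p = 0.0164 and 0.0203), and there without BgnKO fructose replicate 4 the one over both drinks did (0.0360) and the one on fructose did not (0.0535). Rims1, which encodes the Rab3-binding scaffold RIM1, averaged 80.1 FPKM as the sum of 2 loci, with -0.02. Its relatives Rims2 and Rims3 averaged 18.6 and 14.6 FPKM, with -0.08 and 0.18. Rims2 had the narrowest range of all members, 1.28-fold from the lowest to the highest library.

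Bsn, which encodes bassoon, and 3 other members had a locus placed on the other strand, which was summed with the annotated locus by gene name. The strand of a locus was inferred from the annotated strands of neighbouring loci in the order of locus numbers. For genes with 1 locus this rule gave the annotated strand in 99.4% of 19787. For Bsn this locus ranged from 9.68 to 17.7 FPKM in replicate 1 and from 22.3 to 46.8 elsewhere. The locus opposite Syp was 121 to 137 FPKM in replicate 1 and 293 to 425 in the others, and the locus opposite Rph3a was 15.3 to 19.1 and 54.3 to 74.98. These loci separated replicate 1 from the other libraries without overlap. The annotated locus of Syp also did, the other way, at 566 to 650 FPKM in replicate 1 and 392 to 546 elsewhere, while those of Rph3a and Bsn overlapped. The locus opposite Cplx2 stayed at or below 3.03 FPKM. With the highest locus in place of the sum, the calls were the same, Unc13a on fructose and over both drinks, but the values of these members moved. The annotated locus of Bsn was 42.9, 44.04, 43.5 and 49.1 FPKM in WT on fructose and 36.2, 39.3, 40.7 and 41.1 in BgnKO on fructose, without overlap. That locus differed by -0.18 on the log2 scale (SE 0.08, limma adjusted p = 0.224), and the summed loci by -0.07 (adjusted p = 0.878). The annotated locus of Rph3a did not overlap on fructose either, by a small gap, at 115.5 to 124 FPKM in WT and 105 to 114.6 in BgnKO (-0.11, limma adjusted p = 0.487). The same, with the knockout lower, held for 6.43% of all tested genes over their summed values. For Syp the annotated locus was 583, 517, 518 and 546 FPKM in WT on fructose and 650, 465, 484 and 392 in BgnKO. In replicates 2 to 4 the knockout was below WT, as held for 18.6% of all tested genes over their summed values. In replicate 1 it was above WT. The difference on the log2 scale was -0.14 (SE 0.12, limma adjusted p = 0.531).

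**Figure D4:**
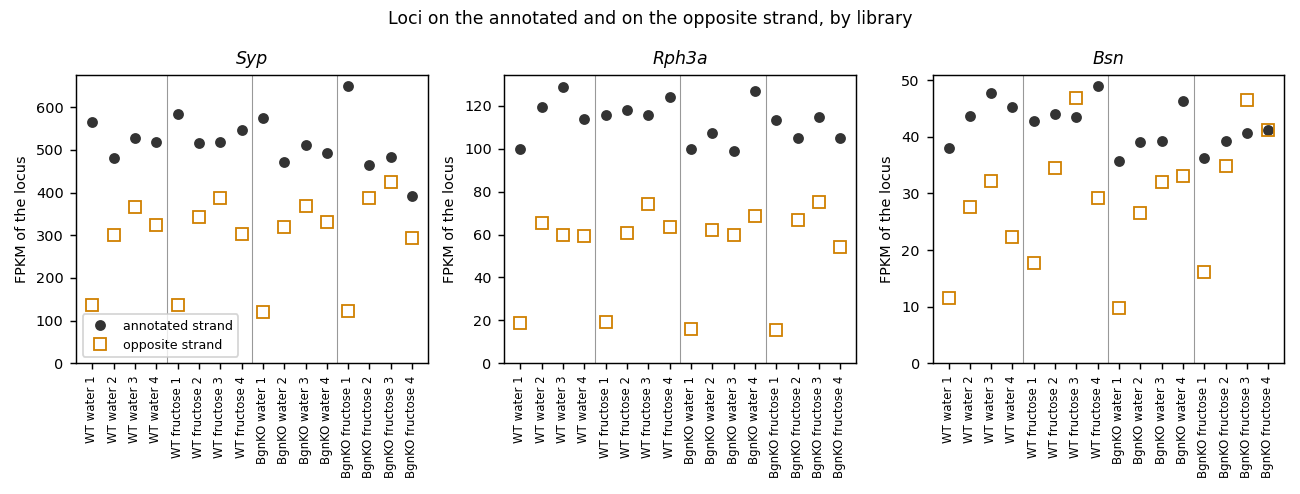
FPKM of the annotated (filled circles) and opposite-strand (open squares) loci of Syp, Rph3a and Bsn in each library, with strands inferred from neighbouring loci. Vertical lines part the groups. The open squares of replicate 1 are the lowest of each group, 121 to 137 FPKM for Syp against 293 to 425 elsewhere.

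The vesicle membrane proteins had 5 of 6 members lower on fructose, with a median log2 fold change of -0.04 and 0 called. Syp, which encodes synaptophysin, a standard marker of synaptic vesicles, averaged 810 FPKM over its summed loci and had -0.05 (limma adjusted p = 0.823). Sv2a, which encodes the vesicle glycoprotein bound by levetiracetam, and its relative Sv2b averaged 106 and 109 FPKM, with -0.08 and -0.16 (limma adjusted p = 0.722 and 0.531). The synaptogyrin genes Syngr1 and Syngr3 averaged 115 and 84.4 FPKM, with -0.02 and 0.04. Synpr, which encodes synaptoporin, a vesicle protein rich in mossy fibre terminals, averaged 51.3 FPKM. Replicate 1 libraries averaged 69.8 FPKM of Synpr and the rest 45.2, with -0.02 between genotypes on fructose.

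Among the vesicular glutamate transporters, Slc17a7 (VGLUT1) averaged 617 FPKM and Slc17a6 (VGLUT2), which is richer in subcortical inputs, 8.54 FPKM. Slc17a7 was 602, 628, 700 and 597 FPKM in WT on water and 571, 506, 557 and 606 in BgnKO on water. The genotypes overlapped in 1 knockout library, and the log2 fold change of -0.17 was not called (limma adjusted p = 1). On fructose it was 656 ± 41.9 FPKM (SD, n = 4) in WT and 620 ± 72.9 (SD, n = 4) in BgnKO. Slc17a6 had 0.28 on water and 0.10 on fructose, with 0 calls.

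Rab3 proteins mark vesicles and recruit effectors to the active zone. Rab3a, the most abundant vesicle Rab of brain, was 524, 552 and 553 FPKM in replicates 2 to 4 of WT on fructose. In those of BgnKO it was 475, 489 and 362, the last in replicate 4. Replicates 2 to 4 of the knockout were below those of WT for 18.6% of all tested genes. With replicate 1, at 439 and 436, the log2 fold change of Rab3a was -0.23 (limma adjusted p = 0.239). Rab3c averaged 72.7 FPKM and Rph3a, which encodes the effector rabphilin, 165 FPKM, and both had -0.09 on fructose (limma adjusted p = 0.733 and 0.811).

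Snap25 and Vamp2 were the 2 highest of the 44 members, the other SNARE genes were far lower, and none was called. Snap25 was 1149, 1446, 1536 and 1602 FPKM in WT on fructose and 1123, 1310, 1343 and 975 in BgnKO on fructose. Replicate 1 of both genotypes and BgnKO fructose replicate 4 were low, the groups overlapped, and the log2 fold change was -0.27 (limma adjusted p = 0.344). Vamp2, which encodes synaptobrevin 2, the main vesicle SNARE of forebrain, averaged 853 FPKM and had -0.04 (95% interval within 0.5 of 0, limma adjusted p = 0.809). Its relative Vamp1 averaged 46.8 FPKM with 0.01, and Stx1a, which encodes syntaxin 1A, 48.8 FPKM with -0.14. The complexins Cplx1 and Cplx2 averaged 373 and 329 FPKM, and all 3 complexins had log2 fold changes of -0.13 to -0.02 on fructose.

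Among the calcium sensors, 4 of 6 were lower on fructose and 0 called. Syt1, the fast calcium sensor of synchronous release, was 480, 461, 508 and 476 FPKM in WT on water and 447, 465, 452 and 476 in WT on fructose. It was 453, 471, 459 and 402 in BgnKO on water and 404, 429, 390 and 301 in BgnKO on fructose. The genotypes overlapped on water and not on fructose. The log2 fold change of Syt1 on fructose was -0.28 (SE 0.09, limma adjusted p = 0.103). With a term for replicate 1 it passed (adjusted p = 0.0442), but not there without BgnKO fructose replicate 4 (0.0918). Syt7, a sensor of asynchronous release and facilitation, was 44.5, 57.9, 55.5 and 51.7 FPKM in WT on water and 49.5, 53.2, 55.9 and 60.6 in WT on fructose. It was 39.1, 49.4, 49.4 and 56.2 in BgnKO on water and 41.8, 49.3, 53.1 and 49.9 in BgnKO on fructose, and the genotypes overlapped. The fold change of Syt7 on the log2 scale was -0.17 on fructose (SE 0.11, limma adjusted p = 0.389) and -0.14 over both drinks (SE 0.08, adjusted p = 0.314). Over both drinks it passed with a term for replicate 1 (adjusted p = 0.0301), also without BgnKO fructose replicate 4 (0.0491). Doc2b, a high-affinity sensor of spontaneous release, averaged 30.2 FPKM and had -0.26 (limma adjusted p = 0.119). Its relative Doc2a, at 6.84 FPKM, had 0.09 and shares 39.4% of its exonic bases with Ino80e on the other strand. Syt2, the sensor of fast hindbrain terminals, averaged 5.69 FPKM with -0.04, and Syt4, an atypical synaptotagmin, 42.8 FPKM with 0.25 on water and 0.08 on fructose.

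The SNARE disassembly genes were lower in 3 of 3 on both drinks, with 0 called. Nsf, which encodes the ATPase that separates spent SNARE complexes, was 366, 360, 363 and 375 FPKM in WT on fructose and 357, 319, 316 and 219 in BgnKO on fructose. All 4 knockout libraries were below WT, with BgnKO fructose replicate 4 far below the other 3, and the log2 fold change was -0.30 (SE 0.12, limma adjusted p = 0.152). The adaptors Napa (alpha-SNAP) and Napb (beta-SNAP) averaged 91.3 and 151 FPKM and had -0.10 and -0.14 (limma adjusted p = 0.496 and 0.379).

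The endocytic genes had 3 of 3 members lower on both drinks, 3 of 3 at an unadjusted p under 0.05 on fructose, where 21.3% of all genes were, and 0 called. Dnm1, which encodes dynamin 1, the GTPase that cuts vesicles from the membrane, was 547, 658, 721 and 641 FPKM in WT on water and 627, 670, 706 and 738 in WT on fructose. It was 547, 594, 618 and 551 in BgnKO on water and 591, 587, 588 and 446 in BgnKO on fructose. Its log2 fold change on fructose was -0.32 (SE 0.10, limma adjusted p = 0.102). With a term for replicate 1 it passed (adjusted p = 0.037), but not there without BgnKO fructose replicate 4 (0.0801). Synj1, which encodes the lipid phosphatase synaptojanin 1 that uncoats vesicles, was 87.1, 88.3, 83.4 and 90.1 FPKM in WT on fructose and 78.3, 80.6, 76.5 and 63.4 in BgnKO on fructose. Its log2 fold change was -0.23 (SE 0.08, limma adjusted p = 0.102), and with a term for replicate 1 the adjusted p was 0.0384, and 0.101 there without BgnKO fructose replicate 4. Amph, which encodes the membrane-bending adaptor amphiphysin, averaged 89.7 FPKM with -0.18 (limma adjusted p = 0.192).

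Fructose itself called no member in either genotype. In WT 26 of 44 were lower on fructose than on water, with a median of -0.03, and 0 passed limma's test, against 0.00791% of all genes. At an unadjusted p under 0.05 there were 0 as well, against 2.08% of all genes. The members with the smallest unadjusted p were Doc2b (log2 fold change 0.18), Rab3c (-0.22) and Doc2a (-0.19), all at adjusted p = 1. In BgnKO 28 of 44 were lower, with a median of -0.05, and 0 passed, against 0% of all genes, while 10 of 44 (22.7%) had an unadjusted p under 0.05, against 12.9% of all genes. These were led by Cadps2 (-0.45), Rims2 (-0.21) and Synj1 (-0.22), each at limma adjusted p = 0.318. Without BgnKO fructose replicate 4, 21 of 44 were lower there, with a median of 0.01. Over both genotypes 0 members passed, against 0.00791% of all genes, and 7 of 44 (15.9%) had an unadjusted p under 0.05, against 10.8% of all genes. The 7 were led by Rab3c (-0.28), Rims2 (-0.14) and Cadps2 (-0.28).

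The difference between the genotype effects on fructose and on water was tested directly. By limma 0 members passed, against 0.00791% of all genes, and 1 had an unadjusted p under 0.05, against 2.91% of all genes. That was Unc13a, at -0.25 (unadjusted p = 0.0482, adjusted p = 0.999), followed by Cadps2 (-0.35) and Syn3 (-0.29). The intervals of 25 of 44 members lay within 0.5 of 0. So although Unc13a passed on fructose and not on water, a difference between the drinks was not shown.

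**Figure D5:**
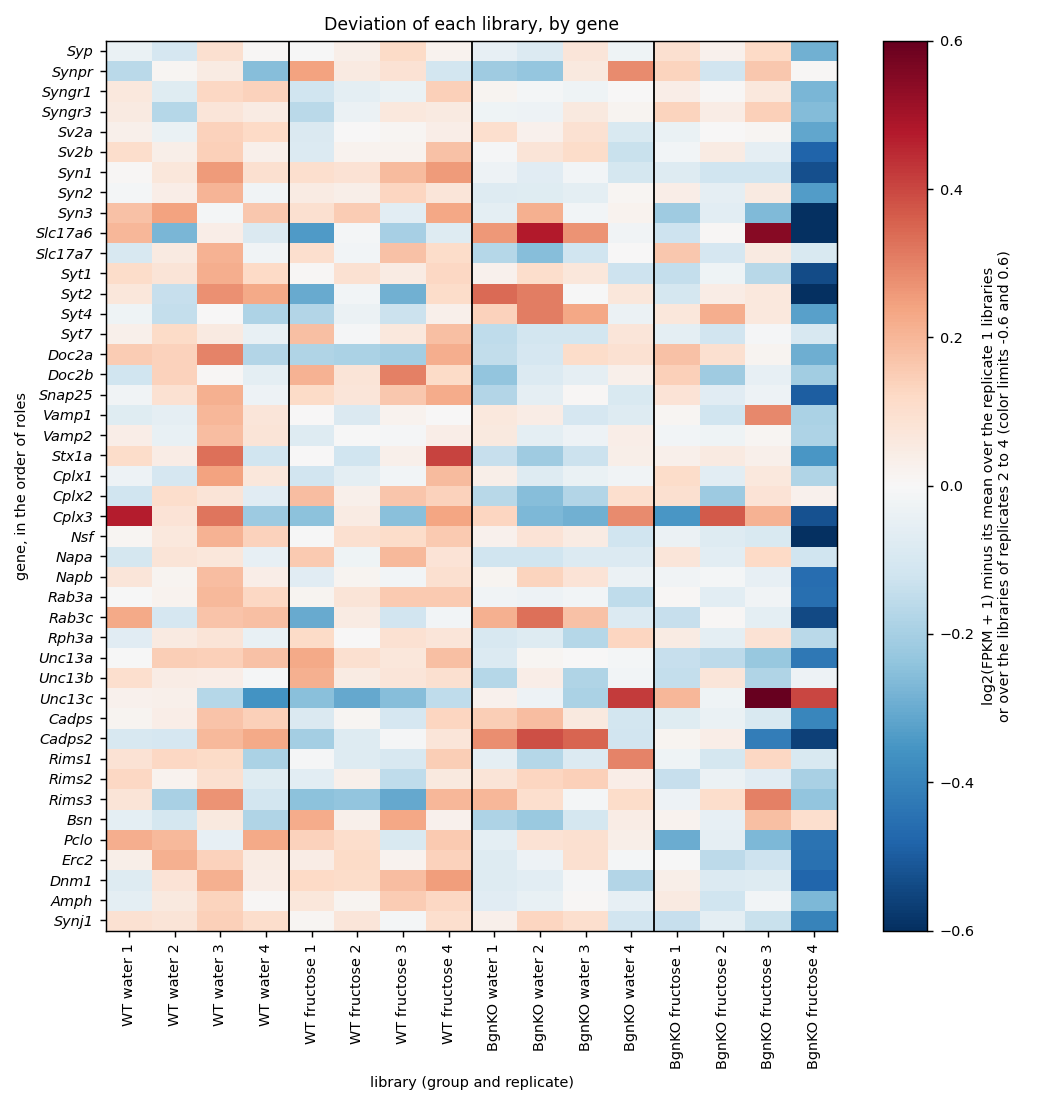
Deviation of each library in log2(FPKM + 1), by gene, from the mean of the replicate 1 libraries (for replicate 1) or of replicates 2 to 4 (for the rest); blue is lower and red higher, with colors limited at -0.6 and 0.6. BgnKO fructose replicate 4, the last column, is blue for most genes, with a median of -0.32.

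Of the 16 libraries, BgnKO fructose replicate 4 was the lowest for 27 of 44 members. Its median member deviation was -0.32, and those of the other 15 libraries were -0.05 to 0.14, while its median over all tested genes was -0.03. In the same library the summed markers of choroid plexus (14 genes, 9288 FPKM), astrocytes (17 genes, 3916), oligodendrocytes (13 genes, 3359), endothelium and meninges were the highest of the 16. The sum of 14 pan-neuronal markers was the lowest, at 2958 FPKM. In the other 15 libraries these sums reached 6356 for choroid plexus and were at least 3368 for the pan-neuronal markers. The sums of inhibitory neuron, dentate granule, CA1 and neocortex markers were also lowest in BgnKO fructose replicate 4. Other neuronal and regional sums were not, at 116 FPKM for CA3 (102 to 152 over the 16 libraries) and 138 for striatum (96.3 to 170). Nor were 22 postsynaptic density genes, at 2163 (1797 to 2217), and 25 further active zone genes, at 908 (789 to 1020). In bulk tissue, fewer cells of a type and less RNA per cell cannot be told apart.

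The same markers also moved between the genotypes on fructose. The marker counts are given with all libraries only, so they include BgnKO fructose replicate 4. Of 17 astrocyte markers 17 were higher in BgnKO, with a median of 0.38. Of them 4 were called, the water channel Aqp4, the growth factor receptor Fgfr3, the filament protein Gfap and the gap junction protein Gja1. Among all tested genes 3.76% were called, and 52.5% were lower. The summed level of the astrocyte markers was 2584 to 2827 FPKM in WT and 2900 to 3916 in BgnKO. Of 14 microglial markers 13 were higher, with a median of 0.34, and of 14 choroid plexus markers 14 were higher, with a median of 1.11, both with 0 called. Choroid plexus sums were 247 to 4491 FPKM in WT on fructose and 2670 to 9288 in BgnKO. The 247 was WT fructose replicate 1, the lowest of the 16 libraries, and replicates 2 to 4 of WT on fructose were 2236 to 4491. BgnKO fructose replicates 1 and 3, at 3123 and 2670, lay within that range, and replicates 2 and 4, at 6356 and 9288, above it. No marker of these 3 lists was listed at 0 in any library.

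Most neuronal markers were lower in the knockout on fructose, as most members were. Of 14 pan-neuronal genes 13 were lower on fructose, with a median of -0.19 and 1 called, the neurofilament gene Ina. Their sum was 3855 to 4193 FPKM in WT and 2958 to 3765 in BgnKO. Of 8 CA1 pyramidal markers 5 were lower, with a median of -0.27 and 1 called, Wfs1 at -0.74, and of 12 inhibitory neuron markers 9 were lower, with a median of -0.07 and 0 called. CA3 markers (median -0.03, Iyd called lower), dentate granule markers (-0.07), and markers of neocortex (-0.13), striatum (0.00), thalamus and midbrain (-0.08) and oligodendrocytes (0.02) complete the neuronal, regional and myelin lists, with 0 calls beside Iyd. Endothelial and meningeal markers had medians of 0.27 and 0.46, with Itm2a called higher. On water, 11 of 14 pan-neuronal markers were lower (median -0.07). Higher there were 16 of 17 astrocyte (0.11), 11 of 14 microglial (0.12), 9 of 14 choroid plexus and 16 of 16 meningeal and fibroblast markers (0.48). Other neuronal lists went the other way on water, with 8 of 12 inhibitory neuron (0.07), 6 of 9 dentate granule (0.04) and 5 of 8 CA3 markers (0.00) higher. Lower there were 6 of 8 CA1 (-0.07), 7 of 10 neocortex (-0.09), 6 of 11 striatum (-0.01) and 11 of 13 oligodendrocyte markers (-0.14). Thalamus and midbrain (8 of 10, 0.18) and endothelial markers (7 of 8, 0.13) were mostly higher, and 0 were called on water in any of these lists. The part of these shifts in the members' values was not tested.

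Other genes of the release and recycling pathway were counted in the same way on fructose. Among all tested genes 52.5% were lower there and 3.76% were called. The counts of these lists are given with all libraries only. Without BgnKO fructose replicate 4, the calls on fructose among all tested genes fell from 475 to 166. Of 18 further vesicle membrane genes 11 were lower and 1 was called, Rab3b. Rab3b, a Rab3 form outside the 44, was 39.5 ± 9.003 FPKM (SD, n = 4) in WT and 21.0 ± 5.77 (SD, n = 4) in BgnKO, a log2 fold change of -0.88 (limma adjusted p = 0.0149). Of 24 further active zone genes 19 were lower and 2 called. These were Ppfia2, which encodes the scaffold liprin-alpha-2, at -0.37 (limma adjusted p = 0.0246), and Cacna1e, which encodes the R-type calcium channel, at -0.39 (0.0352). Of 14 further SNARE and fusion genes 11 were lower, and the 1 called, Stx4a, was higher at 0.39 (limma adjusted p = 0.0287). Stx4a encodes syntaxin 4, a plasma membrane syntaxin found in many cell types.

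Of 12 further synaptotagmin genes 8 were lower, and of 25 further endocytic genes 16, with 0 called in each on fructose. Over both drinks Sytl2, a synaptotagmin-like gene, was called at -0.26 (limma adjusted p = 0.0447), as were Stx4a, Rab3b, Cacna1e and Atp6v1g1, in the same directions as on fructose. Of 14 vacuolar proton pump genes, whose product acidifies the vesicle, 9 were lower and 1 was called higher. That gene, Atp6v1g1, was called on water (0.53, limma adjusted p = 0.0471) and on fructose (0.53, 0.0164). Among all tested genes 0.387% were called on water and 4.99% over both drinks. Of 22 postsynaptic density genes 15 were lower on fructose, with a median of -0.09 and 0 called, beside the -0.12 of the 44 members. Over both drinks 1 of them was called, Dlgap1, which encodes a scaffold that binds PSD-95, at -0.15 (limma adjusted p = 0.0484). The medians of the other lists were -0.05 for vesicle membrane, -0.13 for active zone, -0.10 for SNARE and fusion, -0.08 for synaptotagmins, -0.04 for endocytosis and -0.05 for the proton pump.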

How the data were processed

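Bulk poly-A RNA-seq of mouse hippocampus was analysed from 1 deposited table of FPKM values per locus in 16 libraries. Per the submitters' processing notes the authors used TopHat, Bowtie, Cufflinks and Cuffdiff with the mm10 build, and the deposited FPKM values carry no counts. Their normalization between libraries and use of strand are not given in the sources used here. Of 27670 loci, 4269 without a gene name were left out and loci of 1 name were summed. Names with a mean of at least 1 FPKM (12648) were tested on log2(FPKM + 1) with limma 3.58.1 in R 4.3.3 (group means, trended variance, Benjamini-Hochberg over all tested genes, threshold 0.05). The fit was also run on simulated data with independent noise. Those data held no replicate 1 shift and no deviant library, so the run does not bear on these features. All 44 members were described; values of single libraries went to called members, to those called with a term for replicate 1, and to Slc17a7, Snap25, Rab3a and Nsf, chosen after their values were seen, and in each comparison without a call the 3 of smallest unadjusted p were named. Of further pathway lists, called genes were named. The members and lists were chosen with earlier results of these data known. As a check of pairing, the group mean of each gene was subtracted, and the deviations of same-numbered libraries were correlated over all tested genes. These are not correlations of the levels themselves. The deviations correlated at 0.118 to 0.699 (WT) and 0.197 to 0.612 (BgnKO) between drinks. Between genotypes they correlated at -0.0402 to 0.689 (water) and 0.0868 to 0.750 (fructose). The main fit used no pairing, and the replicate number was a block only in an alternative fit. Among replicates 2 to 4 the correlations were 0.00321 to 0.135 (WT) and -0.0424 to 0.314 (BgnKO) between drinks, and -0.269 to -0.107 (water) and -0.256 to 0.205 (fructose) between genotypes, so the check rests largely on replicate 1. Gene positions are from GENCODE vM21, promoters from RefSeq GRCm38.p6. Alternatives were other pseudocounts, filters, scalings, replicate terms and left-out libraries; 2 combined ones were added after seeing the data.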

Additional observations from a re-analysis of the deposited data

Results flagged for a closer look

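In 9 of 176 gene-by-group sets of 4 libraries, 1 library lay far from the other 3 by Dixon's criterion, and chance alone flags about 1 in 20. Of the 9, 4 were replicate 1 libraries. Synpr was 82.0 FPKM in WT fructose replicate 1 (others 41.5 to 47.8), Unc13a 39.3 in WT water replicate 1 (47.8 to 48.9) and 37.1 in BgnKO water replicate 1 (42.9 to 43.6), and Pclo 13.7 in BgnKO water replicate 1 (22.1 to 23.0).

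In BgnKO fructose replicate 4, Dnm1 was 446 FPKM (others 587 to 591) and Napb 109 (145 to 149). Doc2a was 8.13 FPKM in WT fructose replicate 4 (5.65 to 5.90), Rims3 18.3 in WT water replicate 3 (12.99 to 13.8) and Cadps2 20.3 in BgnKO water replicate 4 (28.1 to 29.1).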

How the results depend on the processing

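The count of 1 member called on fructose became 2 with quantile normalization, 9 with a term for replicate 1, 5 with replicates 2 to 4 alone, and 0 without WT fructose replicate 1 and BgnKO fructose replicate 4 together (the first is the library whose Bgn level was inside the knockout range). Leaving out 1 library at a time gave 0 to 4 on fructose and 1 to 3 over both drinks. The count of 1 over both drinks became 2 with quantile normalization, 10 with a term for replicate 1, 6 with replicates 2 to 4, 2 without that pair of libraries and 2 without the variance trend. Chosen after seeing the data, the term for replicate 1 without BgnKO fructose replicate 4 gave 2 and 11, and without WT fructose replicate 1 gave 2 and 6 (10.7% and 14.1% of all genes).

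With the replicate number as a block, 9 members were called on fructose (19.6% of all genes were), 12 over both drinks (19.8%), and 0 in the other 5 comparisons, which changed no other call. By deviations from the group means, 5 of 8 WT libraries and 6 of 8 BgnKO libraries correlated best between drinks with the one of their own number. Between genotypes, 2 of 8 did on water and 5 of 8 on fructose.

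No single member reversed in any alternative. Of 983 checks of single members, 66 passed where the reported value did not and 4 lost the call, all Unc13a on fructose: without WT fructose replicate 2 or 4, without BgnKO fructose replicate 4, or with that pair of libraries left out (limma adjusted p = 0.0942). Its adjusted p ranged from 0.00262 to 0.0942. Depth is unknown, so no counting error can be given, also for the 7 members at 10 FPKM or less.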
